A study of Mus musculus with 2 samples.

Results

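The calcitonin and adrenomedullin family was followed through single cells of the mouse uterus as 8 genes, chosen by symbol out of 32285 features: the peptide genes Calca, Calcb and Adm, the receptor genes Calcr and Calcrl, and the receptor activity modifying protein genes Ramp1, Ramp2 and Ramp3. All 8 were in the deposited matrices. The study profiled uteri at gestational day 3.5, in the preimplantation period, with 1 library per genotype and n = 1 in the labels. The control library came from Mig-6f/f mice, which carry floxed alleles of Mig-6 and no Cre. The other library came from Pgrcre/+Mig-6f/f mice, which carry the same floxed alleles and 1 copy of Cre at the progesterone receptor gene, Pgr. Cre at Pgr directs deletion to cells that express Pgr, and its own effect cannot be told apart from that of the deletion. With 1 library per group no test was possible, and every difference is one between these libraries.

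Peptides of this family signal through receptors of the class B group that raise cyclic AMP. Calcrl needs a RAMP partner: with Ramp1 it forms the receptor for calcitonin gene-related peptide (CGRP), and with Ramp2 or Ramp3 it forms receptors for adrenomedullin. Calcr binds calcitonin on its own and amylin together with a RAMP. In the uterus, calcitonin is known as a product of the epithelium around implantation, and adrenomedullin as a factor for implantation, blood vessels and lymphatic vessels.

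Barcodes were placed in 4 classes by their marker UMIs (unique molecular identifiers, each standing for 1 captured transcript) per 10000 UMIs. Epithelial barcodes had at least 10 UMIs of Epcam, Krt8, Krt18 and Cldn7 together, and were called glandular with at least 10 of Prss29, Prss28, Spink1 and Cxcl15, and luminal below that. Stromal barcodes had at least 10 of Dcn, Col1a2 and Col3a1, and endothelial barcodes at least 10 of Pecam1, Cdh5, Emcn and Flt1. After quality filters and doublet removal the control kept 4303 of 4627 barcodes, with a median of 9175 UMIs. The library labelled knockout kept 2881 of 3118, with a median of 4892 UMIs. The classes held 646 and 1330 luminal, 102 and 98 glandular, 3247 and 1058 stromal, and 62 and 54 endothelial barcodes in the control library and the library labelled knockout, in that order. Median UMIs were 11952 and 9827.5 in luminal, 10679.5 and 5870.5 in glandular, 8867 and 3634 in stromal, and 5832 and 2061.5 in endothelial barcodes. Foxa2, a gland transcription factor that the class rule did not use, stood at 69.5 and 38.2 CPM in glandular barcodes and at 1.26 and 7.06 CPM in luminal barcodes. The libraries shared 3 barcode sequences. Levels are UMIs of a gene per 1000000 UMIs of the class and library (CPM), and all intervals are exact 95% intervals that cover counting error only.

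Errfi1, the gene of Mig-6, was 539 CPM in control luminal barcodes and 509 CPM in those of the library labelled knockout, at a ratio of 0.944 (0.911 to 0.977). In glandular barcodes it was 833 and 590 CPM, at a ratio of 0.707 (0.631 to 0.792). In stromal barcodes Errfi1 was 199 CPM in the control library and 729 CPM in the library labelled knockout, 3.67-fold higher (3.51 to 3.84), which goes against the label. The deleted part of the gene was not given in the sources used here, so transcript tags may lie outside it. That library is therefore named by its label throughout.

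Calca encodes calcitonin and, by alternative splicing, alpha-CGRP. Counts per gene do not separate these transcripts. Its stretch of 250 bases before the transcript start is shown because Calca had the widest gap between the libraries. RefSeq places it at chr7:114636358-114636607 on the minus strand of GRCm38.p6, and the capitals mark the core TGACG of the cyclic AMP response element, at bases -65 to -61.
Calca: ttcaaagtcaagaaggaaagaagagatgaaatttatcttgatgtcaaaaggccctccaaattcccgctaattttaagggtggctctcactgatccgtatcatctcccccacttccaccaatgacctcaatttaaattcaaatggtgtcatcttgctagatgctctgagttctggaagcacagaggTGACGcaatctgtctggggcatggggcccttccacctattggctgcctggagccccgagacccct
This core, searched on both strands, occurs in 17.8% of the 32851 promoter windows of this length. The whole element TGACGTCA, which contains it, was not found in the window and occurs in 1.55% of all windows.

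Calca had its highest control level in glandular barcodes and was nearly undetected in glands of the library labelled knockout. Of the 263 kept control Calca UMIs, 36.5% lay in glandular barcodes and 45.2% in the more numerous stromal barcodes. Control glandular barcodes held 96 Calca UMIs, or 75.8 CPM (61.4 to 92.6), and 32 of 102 barcodes had at least 1. The 98 glandular barcodes of the library labelled knockout held 1 UMI, or 1.36 CPM (0.0346 to 7.60). The ratio was 0.0180 (0.000451 to 0.103). These UMIs were unevenly spread: 66 of the 96 lay in 10 barcodes, the highest with 19, and 70 barcodes had none. The glandular marker genes were themselves lower in that library, at 9660 CPM summed over Prss29, Prss28, Spink1, Cxcl15 and Foxa2 against 21921 CPM in the control, and the part of this in the Calca difference was not tested. Within the control glands the summed level of these markers was 20214 CPM in barcodes with Calca and 22669 CPM in barcodes without it.

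Barcodes with at least 2000 UMIs were thinned to 2000, and those below were left out of all thinned shares and ratios. Left out were 30 and 53 luminal, 1 and 4 glandular, 44 and 115 stromal, and 3 and 26 endothelial barcodes, control first. After thinning, 12 of 101 control glandular barcodes still had Calca (11.9%, 6.29 to 19.8), and 0 of 94 barcodes labelled knockout. A count of 0 allows a share of up to 3.19% by the floor of 3 barcodes, and the exact interval reaches 3.85%. Both limit barcodes with a Calca UMI, not cells that express the gene. Calca was close to its lower limit in luminal barcodes, with 7 UMIs in the control (0.734 CPM) and 9 in the library labelled knockout (0.538 CPM). Of those 9, 8 came from a single barcode. Control glands thus exceeded control luminal barcodes 103-fold (48.2 to 264). Endothelial barcodes, which should lack the gene, had 0 UMIs in the control library and 4 in the library labelled knockout, in 2 of 54 barcodes.

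Control stroma also carried Calca at a low level, 119 UMIs or 4.01 CPM (3.32 to 4.80), against 3 UMIs or 0.756 CPM (0.156 to 2.21) in stroma of the library labelled knockout, at a ratio of 0.189 (0.0383 to 0.565). Of the 3247 control stromal barcodes 109 were positive, or 3.36% (2.76 to 4.04), and 102 of these had a single UMI. A gland marker UMI was found in 2 of the 109 (1.83%, 0.223 to 6.47) and in 3.44% (2.83 to 4.14) of the stromal barcodes without Calca, with overlapping intervals. The part of gland RNA in the stromal Calca UMIs was not tested. At 2000 UMIs per barcode the shares were 0.624% (0.382 to 0.963) and 0.318% (0.0657 to 0.927), whose intervals overlap. Barcodes with NK cell markers, 79 in the control, held 14 Calca UMIs in 6 barcodes, or 25.4 CPM (13.9 to 42.6). The 97 such barcodes of the library labelled knockout held 0.

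Calcb, which encodes beta-CGRP, was close to absent. The control library held 10 Calcb UMIs in all its barcodes, 7 of them in kept stromal barcodes, and the library labelled knockout held 0. No fold is given for counts of this size.

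Adm, which encodes adrenomedullin, was the most broadly detected peptide gene and an epithelial one. Its window before the start is shown because Adm was the peptide gene that was higher in the library labelled knockout in 2 classes. It lies at chr7:110627407-110627656 on the plus strand of GRCm38.p6 (RefSeq). It held none of the letters searched on both strands, namely TGACGTCA, TGACG, the hypoxia response core ACGTG, the estrogen response element and TATAAA, and so has no capitals.
Adm: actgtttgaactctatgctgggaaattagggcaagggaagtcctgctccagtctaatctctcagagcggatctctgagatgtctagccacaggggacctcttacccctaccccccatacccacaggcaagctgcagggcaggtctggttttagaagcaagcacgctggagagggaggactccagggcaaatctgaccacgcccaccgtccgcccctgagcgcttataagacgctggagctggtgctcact
The hypoxia response core occurs in 16.6%, the estrogen response element in 0.0639% and TATAAA in 12.4% of all windows. The absence of a match says nothing more than that these letters are not in this window.

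Luminal barcodes held 3825 Adm UMIs in the control, 401 CPM (389 to 414), and 11606 in the library labelled knockout, 694 CPM (682 to 707). The ratio was 1.73 (1.67 to 1.79). The median luminal gene was lower in that library, by -0.16 on the log2 scale, and scaling by the median of ratios gave 1.88 for Adm. Luminal Adm was spread over many cells. The 10 barcodes with most Adm held 9.70% of its luminal UMIs in the control library and 4.70% in the library labelled knockout. The median barcode stood at 1.98 Adm UMIs per 10000 in the control library and 5.41 in the library labelled knockout, and the upper quartile at 6.46 and 10.8. At 2000 UMIs per barcode 40.6% of control luminal barcodes (36.7 to 44.6) and 57.9% of those labelled knockout (55.2 to 60.7) had at least 1 Adm UMI. Without thinning the shares were 66.3% and 76.4%.

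**Figure D1:**
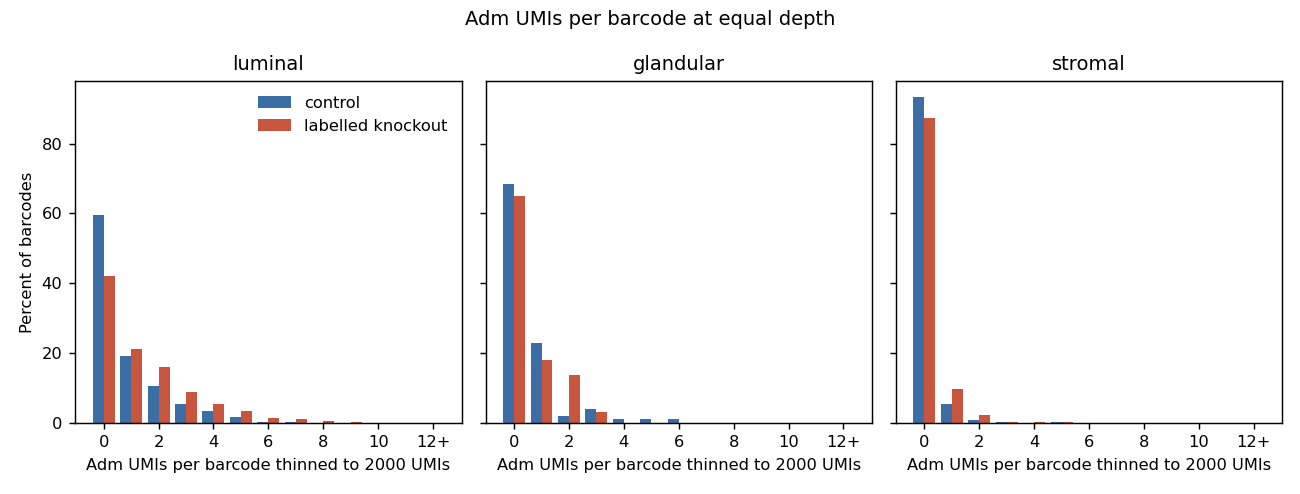
Percent of barcodes (vertical axis) by number of Adm UMIs (horizontal axis) after barcodes with at least 2000 UMIs were thinned to 2000. Luminal, glandular and stromal barcodes of the control (blue) and the library labelled knockout (red) are shown. Barcodes with no Adm UMI were 59.4% of control luminal barcodes and 42.1% of those in the other library, while the glandular shares were 68.3% and 64.9%.

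Glandular Adm differed by less than its counting error, at 276 CPM (248 to 306) on 349 UMIs in the control library and 274 CPM (238 to 315) from 201 UMIs in the library labelled knockout, at a ratio of 0.995 (0.832 to 1.19). The luminal level was therefore 1.46 times the glandular level in the control (1.30 to 1.63) and 2.53 times in the library labelled knockout (2.20 to 2.92). Stromal Adm was 43.9 CPM (41.5 to 46.3) on 1303 UMIs in the control library and 80.4 CPM (71.8 to 89.7) from 319 UMIs in the library labelled knockout, at a ratio of 1.83 (1.62 to 2.07), and 2.19 with doublets kept. Endothelial barcodes held 9 and 1 Adm UMIs.

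The stromal Adm level was set beside the epithelial markers, since free RNA can enter other droplets. Among barcodes of 1 class only, stromal Adm was 10.7% (9.99 to 11.4) of the luminal level in the control library and 11.1% (9.86 to 12.4) in the library labelled knockout. Epcam, Krt8, Krt18 and Cldn7 were at 0.132% to 0.158% of their luminal levels in control stroma and at 0.358% to 0.593% in the other stroma. The part of free RNA in stromal Adm was not tested. At 2000 UMIs 6.74% of control stromal barcodes (5.90 to 7.67) and 12.7% of those labelled knockout (10.7 to 15.02) had Adm, where the unthinned shares were 19.2% and 18.3%. Luminal barcodes gave 70.0% of all kept Adm UMIs in the control library and 95.6% in the library labelled knockout. They made up 15.01% of the kept control barcodes and 46.2% of the other library. The parts of barcode number, depth and Adm level in these shares were not tested.

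**Figure D2:**
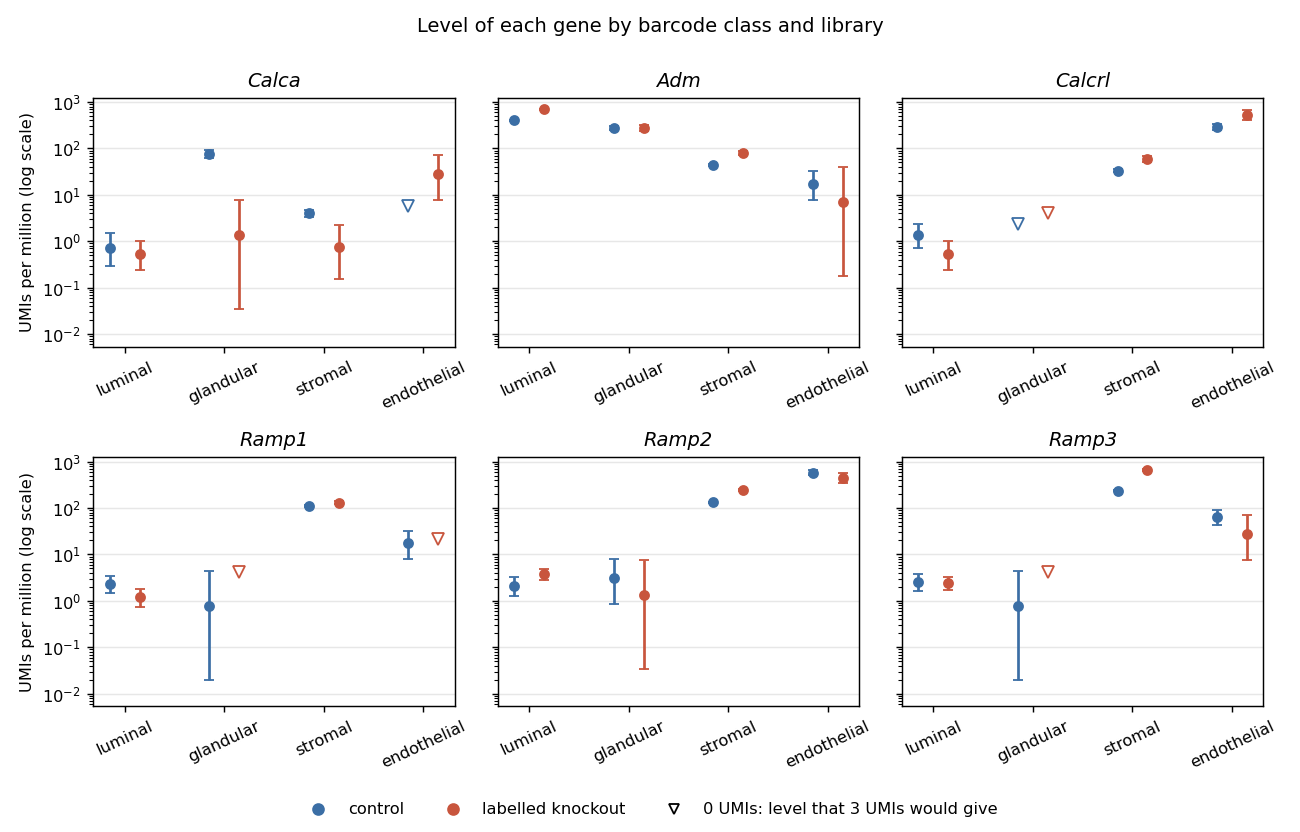
Level of each of 6 members in CPM (log axis) in luminal, glandular, stromal and endothelial barcodes of the control (blue) and the library labelled knockout (red), with exact 95% counting intervals. Open triangles stand for 0 UMIs and are drawn at the level that 3 UMIs would give. Calca and Adm are highest in epithelium, Calcrl and Ramp2 in endothelium and Ramp1 and Ramp3 in stroma, apart from the 28.0 CPM of Calca on 4 endothelial UMIs of the library labelled knockout.

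Calcrl, the receptor shared by CGRP and adrenomedullin, was an endothelial and stromal transcript. Endothelial barcodes held 150 UMIs in the control, 288 CPM (243 to 337), and 75 in the library labelled knockout, 525 CPM (413 to 658), at a ratio of 1.83 (1.36 to 2.42). The class with the next level among the 4 was stroma, at 33.5 CPM (31.4 to 35.6) on 993 UMIs and 59.5 CPM (52.1 to 67.6) on 236 UMIs, at a ratio of 1.78 (1.54 to 2.05). Both classes were thus higher in the library labelled knockout, and the endothelial level exceeded the stromal one 8.60-fold (7.19 to 10.2) in the control library and 8.83-fold (6.71 to 11.5) in the other library. Endothelial Calcrl rested on few barcodes: 10 barcodes held 58.7% of the control UMIs and 84.0% of the others. Without thinning, Calcrl was found in 67.7% (54.7 to 79.1) of 62 control and 35.2% (22.7 to 49.4) of 54 endothelial barcodes labelled knockout, at unequal depth. At 2000 UMIs per barcode the shares were 39.0% (26.5 to 52.6) of 59 and 42.9% (24.5 to 62.8) of 28 barcodes. The 26 endothelial barcodes labelled knockout with fewer UMIs were left out there. The thinned ratio of levels was 1.31.

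Luminal barcodes, where the receptor should be lacking, had Calcrl in 1.39% of control barcodes (0.639 to 2.63) and 0.451% of those labelled knockout (0.166 to 0.979), on 13 and 9 UMIs. Glandular barcodes had 0 in both libraries. Stromal shares were well above this at 17.7% (16.4 to 19.1) and 15.2% (13.1 to 17.5), without thinning and at unequal depth. After thinning they stood at 5.62% (4.85 to 6.47) and 9.44% (7.65 to 11.5), control first. The direction thus turned at equal depth, and the thinned intervals do not overlap. Calcr, the calcitonin receptor, gave 1 UMI in all, in a control stromal barcode, and 0 in every other class of both libraries. No level can be read from a single UMI.

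The endothelial classes differed in other markers too. The lymphatic genes Lyve1, Prox1, Flt4, Mmrn1 and Ccl21a summed to 110 UMIs (211 CPM) in control endothelial barcodes and 6 UMIs (42.0 CPM) in the library labelled knockout, where Lyve1, Mmrn1 and Ccl21a were at 0. NK markers gave 1 and 30 UMIs, pericyte markers 1 and 11, and stromal markers 130 and 3. Their part in the endothelial results was not tested. Without the barcodes that had a lymphatic marker UMI, the endothelial ratio was 1.72 for Calcrl, 0.868 for Ramp2 and 0.510 for Ramp3.

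Ramp1, the partner that makes Calcrl a CGRP receptor, was a stromal gene. Stromal barcodes held 3299 UMIs in the control, 111 CPM (107 to 115), and 520 in the library labelled knockout, 131 CPM (120 to 143), at a ratio of 1.18 (1.07 to 1.29). At 2000 UMIs per barcode 20.01% (18.6 to 21.4) and 21.7% (19.1 to 24.5) of stromal barcodes had Ramp1. Barcodes with smooth muscle markers were higher in the control, at 214 CPM (189 to 241), and stood at 148 CPM (127 to 170) in the library labelled knockout. Endothelial barcodes held 9 and 0 Ramp1 UMIs and luminal barcodes 22 and 20, or 2.31 and 1.20 CPM.

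Ramp2, the partner for the adrenomedullin receptor of vessels, was highest in endothelium, at 575 CPM (512 to 644) on 300 UMIs in the control library and 441 CPM (339 to 564) from 63 UMIs in the library labelled knockout. The interval of this ratio, 0.767 (0.575 to 1.01), includes 1. Ramp2 was found in 87.1% of control endothelial barcodes (76.1 to 94.3) and 53.7% of those labelled knockout (39.6 to 67.4), and at 2000 UMIs in 78.0% (65.3 to 87.7) and 53.6% (33.9 to 72.5). Stromal Ramp2 was 132 CPM (128 to 136) on 3914 UMIs and 244 CPM (229 to 260) on 967 UMIs, at a ratio of 1.85 (1.72 to 1.98). The endothelial level was 4.36 times the stromal level in the control (3.87 to 4.91) and 1.81 times in the library labelled knockout (1.38 to 2.34). Luminal barcodes were far lower, at 2.10 and 3.71 CPM.

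Ramp3, the other partner for an adrenomedullin receptor, had the highest stromal ratio among the members. Its window before the start is shown for that reason, at chr11:6658283-6658532 on the plus strand of GRCm38.p6 (RefSeq). None of the same motifs was found in it, so it has no capitals.
Ramp3: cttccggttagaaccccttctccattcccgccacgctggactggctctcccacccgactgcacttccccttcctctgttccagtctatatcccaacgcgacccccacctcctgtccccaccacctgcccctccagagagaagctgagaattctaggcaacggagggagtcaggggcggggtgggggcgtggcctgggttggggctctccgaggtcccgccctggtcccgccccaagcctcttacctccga
Stromal barcodes held 7067 Ramp3 UMIs in the control, 238 CPM (233 to 244), and 2612 in the library labelled knockout, 658 CPM (633 to 684). The ratio was 2.76 (2.64 to 2.89). The share of stromal barcodes with Ramp3 was 55.6% (53.9 to 57.3) and 73.9% (71.2 to 76.5), and at 2000 UMIs 28.4% (26.9 to 30.0) and 61.5% (58.3 to 64.6). Luminal barcodes, which should lack it, had Ramp3 in 2.94% (1.78 to 4.56) and 1.88% (1.22 to 2.76). The median stromal barcode stood at 1.02 Ramp3 UMIs per 10000 in the control library and 4.73 in the library labelled knockout.

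Smooth muscle markers were carried by 159 of the control stromal barcodes and 324 of the stromal barcodes labelled knockout. Over all stroma, with or without these markers, Des was 417 and 749 CPM and Myh11 was 33.1 and 8.32 CPM, control first. Which marker led in the stromal barcodes that carried them was not tested. In all smooth muscle barcodes, stromal or not, the markers summed to 5206 and 2167 CPM, in the same order. The part of this difference in the Ramp3 ratios was not tested. In stromal barcodes with these markers Ramp3 was 112 CPM (93.6 to 134) and 705 CPM (656 to 755), at a ratio of 6.27 (5.19 to 7.63). In the remaining stroma it was 243 CPM (237 to 249) and 640 CPM (611 to 670), at a ratio of 2.63 (2.50 to 2.77). Ramp3 was thus at least 2-fold higher in stroma with and without muscle markers, and the control alone had less of it in the stromal barcodes with muscle markers. Pericyte barcodes, 36 and 24 in number, had 345 CPM (270 to 434) and 237 CPM (109 to 450). Endothelial Ramp3 was 63.3 CPM (43.6 to 88.9) on 33 UMIs in the control library and 28.0 CPM (7.63 to 71.7) from 4 UMIs in the library labelled knockout, at a ratio of 0.442 whose interval of 0.114 to 1.24 spans 1 and whose direction depended on the processing.

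**Figure D3:**
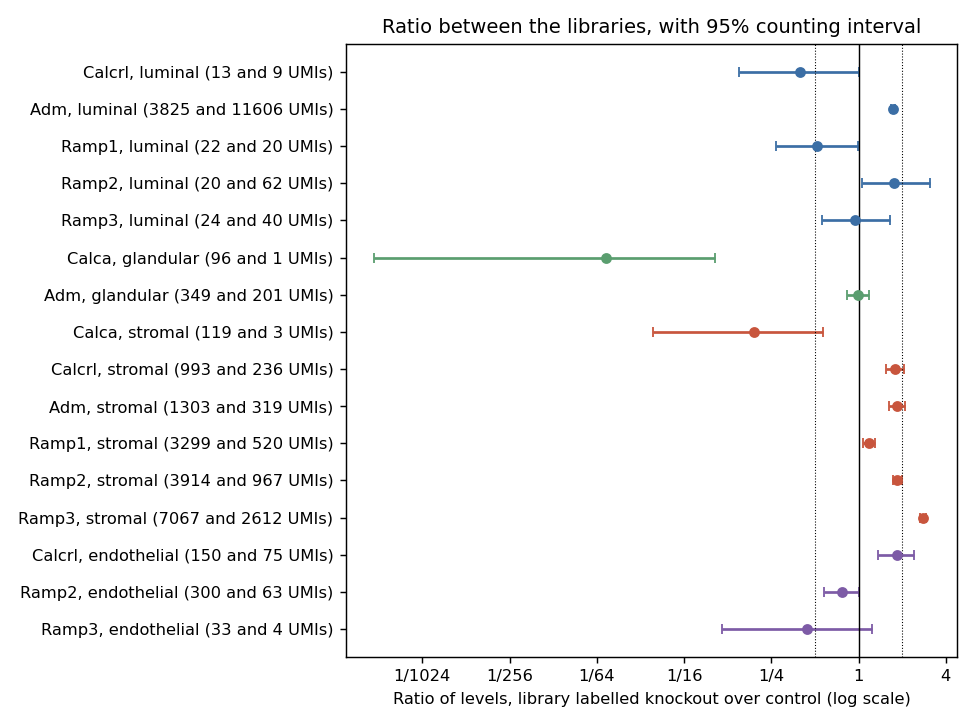
Ratio of levels, library labelled knockout over control (log axis), with exact 95% counting intervals, for the members with at least 20 UMIs over both libraries of a class. Dotted lines mark 2-fold in each direction. Ramp3 in stroma lies above 2-fold at 2.76, Calca lies below it in glands (0.0180) and stroma (0.189), and most other points fall between the lines.

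Receptor and partner were next counted in the same barcode. In endothelium 37 of 62 control barcodes (59.7%, 46.4 to 71.9) and 14 of 54 barcodes labelled knockout (25.9%, 14.96 to 39.7) had both Calcrl and Ramp2, the adrenomedullin receptor pair. At 2000 UMIs the pair was found in 17 of 59 (28.8%, 17.8 to 42.1) and 7 of 28 barcodes (10.7% to 44.9%). No difference was detectable among these barcodes at equal depth, and the 26 endothelial barcodes labelled knockout with fewer UMIs were left out. In stroma Calcrl and Ramp3 were found together in 9.73% (8.73 to 10.8) and 11.1% (9.23 to 13.1) of barcodes, and at 2000 UMIs in 1.53% (1.13 to 2.02) and 4.98% (3.68 to 6.57). The thinned shares for Calcrl with Ramp1, the CGRP receptor pair, were 1.16% (0.815 to 1.59) and 2.01% (1.22 to 3.13) in stroma.

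Without thinning, Ramp3 was detected about as often in stromal barcodes with and without Calcrl. It was detected in 55.0% (50.8 to 59.1) of the 575 control stromal barcodes with Calcrl and in 55.7% (53.8 to 57.6) of those without it, at median depths of 9403 and 8778.5 UMIs. The same shares in the library labelled knockout were 72.7% (65.1 to 79.4) and 74.1% (71.1 to 77.0). At least 1 RAMP gene was found in 93.7% (91.4 to 95.6) of control stromal barcodes with Calcrl and in 91.2% (90.03 to 92.2) of those without it. The shares in the library labelled knockout were 89.4% (83.6 to 93.7) and 89.1% (86.8 to 91.04). At 2000 UMIs they were 58.3% with and 58.8% without Calcrl in the control, and 73.0% and 79.04% in the other library. Intervals overlapped in each pair. Thinned Ramp3 shares were 27.2% with and 28.5% without Calcrl in the control. In the other library they were 52.8% (41.9 to 63.5) and 62.4% (59.1 to 65.7). Thinned Ramp2 shares were 20.6% and 21.5% in the control. For the library labelled knockout Ramp2 stood at 22.5% (14.3 to 32.6) with and 36.9% (33.6 to 40.2) without Calcrl. Those intervals do not overlap, but the first rests on 20 of 89 barcodes and the pair is one of several compared. Without thinning the Ramp2 shares in that library were 42.9% (35.1 to 50.9) with and 50.6% (47.3 to 53.9) without Calcrl. In the control they were 63.7% (59.6 to 67.6) and 59.0% (57.1 to 60.9). The unthinned intervals overlap in both libraries.

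Combinations of RAMP genes differed between the libraries. In thinned stromal barcodes Ramp1 was found in 20.01% and 21.7%, Ramp2 in 21.5% and 35.5%, and Ramp3 in 28.4% and 61.5%, control first. The part of each gene in the combinations was not tested. Of the thinned stromal barcodes, 41.2% (39.5 to 42.9) in the control library and 21.5% (18.9 to 24.3) in the library labelled knockout had no RAMP UMI. Ramp3 alone was seen in 21.3% (19.9 to 22.8) and 29.6% (26.7 to 32.6), and Ramp2 with Ramp3 in 3.90% (3.26 to 4.63) and 18.9% (16.4 to 21.5). All 3 were detected together in 0.468% (0.262 to 0.771) and 5.62% (4.24 to 7.29). Ramp1 alone was seen in 13.2% (12.1 to 14.5) and 5.94% (4.52 to 7.64).

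**Figure D4:**
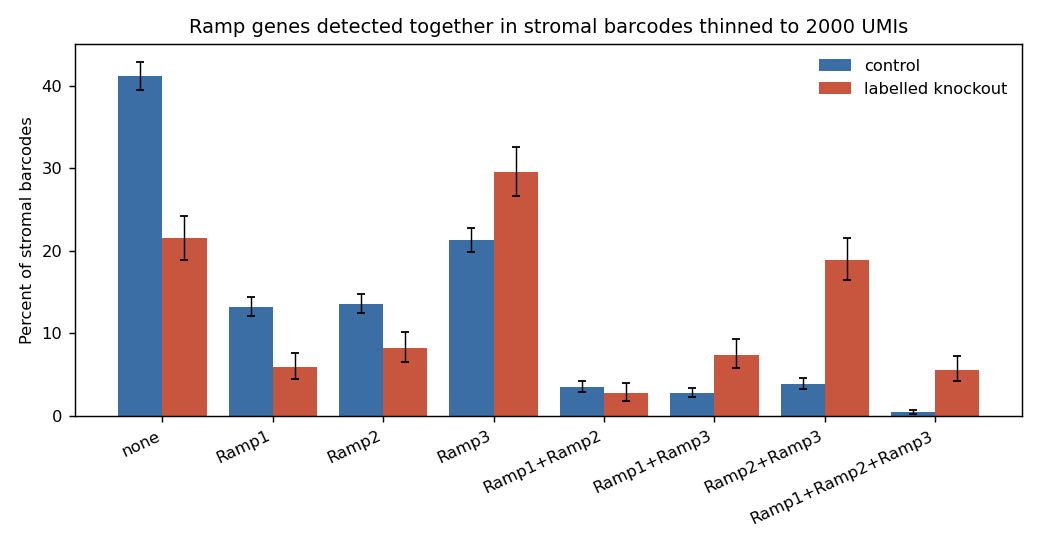
Percent of stromal barcodes (vertical axis) with each combination of Ramp1, Ramp2 and Ramp3, among those with at least 2000 UMIs, each thinned to 2000. Bars show the control (blue) and the library labelled knockout (red), with exact binomial 95% intervals. Barcodes with Ramp2 and Ramp3 together stand at 3.90% and 18.9%.

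The members were then read against all genes with at least 20 UMIs over both libraries of a class. In stroma 1 of 6 members counted, Ramp3, was at least 2-fold higher in the library labelled knockout, where 5.47% of 14585 genes were, and 1 of 6, Calca, was at least 2-fold lower, where 11.6% were. Among glandular barcodes 0 of 2 members were higher (4.51% of 8360 genes) and 1 of 2, Calca, was lower (5.67%). Luminal barcodes had 0 of 5 higher (5.38% of 13171 genes) and 1 of 5 lower (15.4%). That 1 was Calcrl, at 0.395 (0.149 to 0.998) on 22 UMIs. Endothelial barcodes had 0 of 3 higher (6.96% of 5112 genes) and 1 of 3 lower (9.35%), which was Ramp3 on 37 UMIs. With so few members counted per class, these shares cannot be told from the background. The median log2 ratio over all genes counted was -0.16 in luminal, -0.03 in glandular, -0.05 in stromal and 0.00 in endothelial barcodes.

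Other genes of the pathway were taken as 6 lists. Of all genes, 5.38% were at least 2-fold higher and 15.4% lower in luminal barcodes, and 4.51% and 5.67% in glandular ones. In stroma these shares were 5.47% and 11.6%, and in endothelial barcodes 6.96% and 9.35%. Every list count below is to be read beside them. Of the related peptides and receptors, none of the 4 counted in luminal barcodes was higher and 2 were lower. These were Adm2, the adrenomedullin 2 gene, at 1.68 and 0.658 CPM, and Pth1r, the parathyroid hormone receptor, at 1.78 and 0.179 CPM. In stroma 1 of 4 was higher and 1 lower. Ackr3, a chemokine receptor that also takes up adrenomedullin, was 45.6 and 110 CPM, 2.42-fold higher (2.17 to 2.70). Vipr2, a receptor for vasoactive intestinal peptide, was 11.5 and 1.76 CPM, at a ratio of 0.154 (0.0613 to 0.320). Endothelial Ackr3 had 27 UMIs in the control library and 0 in the library labelled knockout. It was 2.47-fold lower with the 0 set at a floor of 3 UMIs, which is a setting and not a limit of counting error. The median log2 ratio of this list was -0.71 in luminal, 0.21 in glandular and -0.11 in stromal barcodes.

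Genes that cut and finish peptide precursors were counted next, against the shares of all genes given above (5.38% higher and 15.4% lower in luminal barcodes, 4.51% and 5.67% in glandular ones). In luminal barcodes 2 of 7 counted were higher and 1 lower. The convertase genes Furin, at 49.3 and 103 CPM, and Pcsk6, at 194 and 464 CPM, were 2.09-fold (1.89 to 2.32) and 2.40-fold higher (2.28 to 2.52), and Pcsk5 was 10.1 and 0.957 CPM. In glandular barcodes 2 of 5 were higher and 0 lower: Pam, the enzyme that amidates calcitonin, CGRP and adrenomedullin, at 33.2 and 87.3 CPM, and Pcsk6 at 74.3 and 162 CPM. None of 8 differed by 2-fold in stroma. Endothelial barcodes had 1 of 5 lower, Cpe, a carboxypeptidase, at 121 and 49.0 CPM. Median log2 ratios were -0.14, 0.57, 0.19 and 0.06 in luminal, glandular, stromal and endothelial barcodes.

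Peptide breakdown was led by Mme, the gene of neprilysin. In luminal barcodes Mme was 308 and 16.4 CPM, at a ratio of 0.0531 (0.0468 to 0.0601), and in glandular barcodes 292 and 88.7 CPM, at a ratio of 0.304 (0.230 to 0.397). Luminal barcodes had 2 of 5 counted lower, Mme and the aminopeptidase gene Anpep at 167 and 73.0 CPM, and 0 higher, with a median log2 ratio of 0.16. In glands Mme was the 1 of 5 that was lower and 0 were higher, at a median of 0.32. Stroma had 1 of 5 higher and 0 lower, Ece1, the endothelin converting enzyme gene, at 16.4 and 38.6 CPM, 2.35-fold higher (1.95 to 2.83), at a median of 0.38. Neither of the 2 endothelial genes counted differed by 2-fold, at a median of 0.22.

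Of the genes that make, read or destroy cyclic AMP, 2 of 21 were higher and 3 lower in luminal, 1 of 13 higher and 2 lower in glandular, 0 of 26 higher and 2 lower in stromal, and 1 of 12 higher and 1 lower in endothelial barcodes. With so few genes these shares are not set apart from those of all genes. The medians were -0.26, 0.00, 0.12 and -0.15. Luminal Pde7b, a cyclic AMP phosphodiesterase, was 54.7 and 187 CPM, 3.43-fold higher (3.12 to 3.77), and Prkar1b, a regulatory subunit of protein kinase A, was 23.9 and 4.13 CPM. Pde7b was also higher in glands, at 27.7 and 60.0 CPM, while Prkar1b (16 and 4 UMIs) and Grk2, a receptor kinase (30 and 8 UMIs), were lower there with intervals that include 1. In stroma Adcy2, an adenylyl cyclase, had 145 and 2 UMIs and Prkar2b 270 and 15 UMIs. Endothelial Pde3b had 8 and 17 UMIs and Adcy4 60 and 8.

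Genes that cyclic AMP is known to induce had no common direction. In luminal barcodes 0 of 9 were higher and 2 lower: Nr4a3, a nuclear receptor, at 76.5 and 17.4 CPM, and Per1, a clock gene, at 16.2 and 3.47 CPM. The luminal median was -0.80. Glands had 1 of 9 lower, Nr4a2 at 106 and 50.5 CPM, at a median of -0.32, and stroma had 0 of 9 beyond 2-fold at a median of -0.14. Of all genes counted in endothelial barcodes, 6.96% were higher and 9.35% lower. The list had 4 of 6 counted higher there and 0 lower, at a median of 1.06, which was not tested. Among these, Dusp1, a phosphatase gene, was 161 and 371 CPM, 2.30-fold higher (1.60 to 3.29), and Fosb was 78.6 and 182 CPM, 2.32-fold higher (1.36 to 3.88).

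Hypoxia is known to raise Adm, and 10 other hypoxia genes were counted beside it. In luminal barcodes, where Adm was higher, 2 of 10 were higher and 2 lower, at a median of 0.08. Egln3, a prolyl hydroxylase, was 5.04 and 31.3 CPM, 6.22-fold higher (4.62 to 8.55), while Ndrg1 was 125 and 40.0 CPM and Bnip3 4.93 and 1.73 CPM. Stroma had Egln3 higher at 2.29 and 6.80 CPM and Pdk1, a pyruvate dehydrogenase kinase, lower at 10.6 and 3.78 CPM, at a median of 0.00. Glands had 2 of 6 lower, Ndrg1 and Bnip3, at a median of -0.56, and endothelial barcodes 1 of 8 lower, the glucose transporter gene Slc2a1 at 92.0 and 42.0 CPM, at a median of -0.40.

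The genes closest to Adm, Calcrl and the RAMP genes in their pattern were found by Pearson's correlation of log2(CPM + 1) over 16 points, 8 classes in each of the 2 libraries, among 11809 genes. The points share libraries, depth and barcodes of overlapping classes, so these values describe likeness and carry no test. The nearest gene was Epb41l5 for Adm (0.939), Grasp for Calcrl (0.935), Slc24a3 for Ramp1 (0.955), Dchs1 for Ramp2 (0.967) and Ergic1 for Ramp3 (0.956). Next came Bmyc (0.897) and Rasef (0.876) for Adm, St3gal4 (0.926) and Sntb2 (0.922) for Calcrl, St6galnac6 (0.950) and Lgals1 (0.907) for Ramp1, Gja1 (0.948) and Aox1 (0.941) for Ramp2, and Zcchc24 (0.955) and Tuba1a (0.946) for Ramp3.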

How the data were processed

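Single-cell RNA of 2 mouse uterus libraries, 1 per genotype, was used. The deposited files hold whole UMI counts per gene and barcode, which per the file headers were written by Cell Ranger 7.0.1. The submitters' processing notes list the genome mm39 and Seurat with no version. Tissue was digested with trypsin and treated with a dead cell removal kit, per the labels' protocols.

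Barcodes were kept from 500 genes upward and up to 15% of mitochondrial UMIs: 65 control barcodes and 115 labelled knockout fell under the gene minimum, and a further 100 and 52 over the mitochondrial limit. Doublets were removed by the highest Scrublet scores (scanpy 1.11.5) at 0.8% per 1000 barcodes, 159 and 70 barcodes. Of the kept barcodes 277 and 350 were in no class, and a barcode could be in more than 1 (26 control and 9 others were luminal and stromal). Added classes (NK, macrophage, smooth muscle, pericyte) used the same threshold of 10 marker UMIs per 10000.

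UMIs were summed per class and library. Total UMIs were 44871170 and 23317904. Intervals are exact Poisson for levels, exact conditional for ratios and exact binomial (Clopper-Pearson) for shares, at 95%, from scipy 1.17.1. A ratio against 0 used a floor of 3 UMIs. A gene was counted as different at a ratio of 2 or more in either direction with at least 20 UMIs over both libraries. The step was run on simulated Poisson counts, the same model that the intervals assume. The simulation had no spread between animals, libraries or barcodes, so it checks the calculation only.

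All 8 members were described in every class. From each list the text names up to 3 genes per class past 2-fold, by the interval bound nearest 1, and for each member with enough UMIs the 3 genes most alike, which are not reported here for Calca. The members and lists were chosen with earlier results of these data known. Promoter windows of 250 bases came from RefSeq (GRCm38.p6), which matched 6 of 8 members, and the first window was used for each member shown. That build differs from mm39, and no coordinates were converted. Adm overlaps Gm28863, which had 10 and 8 luminal UMIs, and Ramp3 overlaps Gm11978. Calcr overlaps Mir653, Mir489 and Gm33576. Whether counting used strand was not given in the sources used here. Alternatives were other filters, thresholds, scalings, doublets kept, 1 class only, means over barcodes, thinning and other UMI minimums.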

Additional observations from a re-analysis of the deposited data

Results flagged for a closer look

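For 3 members the ratio between the libraries pointed in opposite directions in different classes, with 1 library on each side, and the difference between classes was not tested. Calcrl had a ratio of 1.78 in stromal and 1.83 in endothelial barcodes and 0.395 in luminal barcodes, the last on 22 UMIs. Luminal Calcrl no longer counted as 2-fold lower with doublets kept, with thresholds of 5 marker UMIs or after thinning. The stromal markers Dcn, Col1a2 and Col3a1 summed to 50.1 CPM in control luminal barcodes and 16.4 CPM in those labelled knockout. The part of stromal RNA in luminal Calcrl was not tested. Ramp1 had 1.18 in stromal and 0.518 in luminal barcodes, the last on 42 UMIs. With barcodes of 1 class only luminal Ramp1 was 1.77 on 25 UMIs, which turns its direction and ends the opposition. Ramp3 had 2.76 in stromal and 0.442 in endothelial barcodes, the last on 37 UMIs with an interval that includes 1, and the endothelial direction turned under 3 alternatives.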

How the results depend on the processing

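No paired analysis was possible because there is 1 library per group, so no replicate could be left out either. Counts of members beyond 2-fold were 1 in luminal, 1 in glandular, 2 in stromal and 1 in endothelial barcodes. Without the quality filter they were 2 in luminal and 0 in endothelial barcodes, and with doublets kept 0 in luminal and 3 in stromal barcodes, where Adm reached 2.19. With barcodes of 1 class only they were 2 and 0, with thresholds of 5 marker UMIs 0 and 2, and with means over barcodes 3 and 0, in luminal and endothelial barcodes. Thresholds of 20 gave 2 in luminal barcodes. After thinning, luminal, glandular and endothelial barcodes all had 0, since fewer genes reached 20 UMIs, and a minimum of 50 UMIs gave 0 in luminal and endothelial barcodes. With a minimum of 1 UMI the counts were 4 glandular, 4 stromal and 3 endothelial, where the added members had 1 to 10 UMIs. Leaving out barcodes with a lymphatic marker UMI, an alternative chosen after seeing the data, gave 0 in endothelial barcodes. The endothelial Ramp3 ratio of 0.442 turned to 1.49 without the quality filter, 1.43 as a mean over barcodes and 1.05 after thinning, on 40, 37 and 6 UMIs, and the cause was not tested. Calca and Ramp3 in stroma were beyond 2-fold under every alternative run, at 0.178 to 0.443 and 2.61 to 3.22. The 0.443 of stromal Calca is the thinned ratio, with Calca in 20 of 3203 control barcodes and 3 of 943 labelled knockout. Glandular Calca ran from 0.0141 to 0.0210, apart from 0.215 after thinning on 15 UMIs, where 0 in 1 library was set at the floor. Luminal Adm ran from 1.62 to 1.88 and glandular Adm from 0.986 to 1.09. Luminal Calcrl, Ramp1 and Ramp2 and endothelial Ramp3 rest on 22 to 82 UMIs, which limits their precision. Luminal Ramp1 turned from 0.518 to 1.77 with barcodes of 1 class only and was 0.252 as a mean over barcodes. Thinning moved 26 of 35 shares of positive barcodes by over 1.5 times.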

Other observations

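Barcodes in no class held 42 Calca UMIs in the control and 11 in the library labelled knockout, 15.97% and 39.3% of all kept Calca UMIs, in 12 and 6 barcodes. In the control 1 of these barcodes held 15. Barcodes in no class also held 220 and 182 Ramp3 UMIs. They took in all 79 control barcodes with NK cell markers and 93 of the 97 labelled knockout. The 14 Calca and 28 Ramp3 UMIs of the control NK barcodes are thus part of the 42 and the 220. In 79 and 97 barcodes with NK cell markers Ramp3 had 28 and 1 UMIs and Ramp1 30 and 5, with 11 of the 28 in a single barcode. Macrophage marker barcodes, 51 and 23, held Ramp1 at 63.1 and 68.6 CPM on 19 and 4 UMIs.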
